A study of Mus musculus with 4 samples.

Results

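Collagen chains and the enzymes that hydroxylate, fold, cleave and cross-link them were followed across 4 aortic expression arrays, 1 per group. The set holds 35 listed genes, chosen by symbol. Every probe set that the platform annotation assigns to a listed symbol alone was taken, which gave 67 probe sets of 34 genes out of 45101 probe sets on the array. Loxl2 has no probe set of its own. The groups were Ath29 congenic mice on a Western diet, Ath29 congenic mice on chow, C57BL/6 apoE-/- mice on a Western diet and C57BL/6 apoE-/- mice on chow. The C57BL/6 apoE-/- mice, called B6 below, lack apolipoprotein E and are the controls, labelled as having atherosclerosis. Ath29 mice are labelled as C57BL/6 mice resistant to atherosclerosis and carry a donor segment at Ath29, an atherosclerosis locus of chromosome 9. Their labels do not state the Apoe genotype. All mice were weaned onto chow at 3 weeks of age, and the Western diet, rich in fat and cholesterol, ran for 2 weeks from 4 weeks of age. The labels do not say how many mice an array stands for. Each group has a single array, so no difference between groups could be set against a spread between replicates.

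Collagens are trimeric proteins whose chains wind into a triple helix of glycine-led triplets. In the endoplasmic reticulum, prolyl hydroxylases stabilise the helix, lysyl hydroxylases prepare the cross-linking sites, and the chaperone Serpinh1, also called HSP47, holds the folded trimer. After secretion, proteases trim the propeptides and lysyl oxidases join the molecules covalently. In the artery wall, collagens I and III bear tensile load in media and adventitia, collagens IV, XV and XVIII belong to basement membranes around smooth muscle and endothelial cells, and collagen VIII is a short-chain network collagen made by vascular cells.

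Array medians lay between 27.9 and 28.8 intensity units as deposited. The intensities below are shifted to a common array median by factors of 0.990 to 1.02, and a difference is a difference of log2 intensities. The label aorta was borne out by smooth muscle markers: Acta2 read 10674 in Ath29 Western, 10395 in Ath29 chow, 10634 in B6 Western and 11269 in B6 chow. The extract protocol names liver, but of the 7 listed hepatocyte genes with a probe set only 2 passed the intensity filter of 27.5. Other tissue was unevenly present. The summed intensity of 9 heart muscle genes was 514 in Ath29 Western, 753 in Ath29 chow, 15152 in B6 Western and 925 in B6 chow, and that of 8 brown fat genes was 10590, 13777, 17996 and 8435 in the same order. The 3' to middle ratio of a control gene is a sign of RNA integrity. For actin it was 7.62 in Ath29 Western, 10.2 in Ath29 chow, 5.63 in B6 Western and 5.10 in B6 chow. For Gapdh it was 10.6, 8.87, 9.54 and 9.23 in the same order, so Ath29 chow was highest for actin and lowest for Gapdh. Ratios of the 3' end to the opposite end ran from 22.8, for Gapdh, to 31.5, for actin, both in Ath29 chow. Actin and Gapdh thus did not rank the arrays alike. Whether these signals have a part in the collagen values was not tested. On bulk arrays fewer collagen-making cells and less RNA per cell cannot be told apart.

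Of the 34 genes, 31 had a probe set whose mean over the 4 arrays passed the filter, and each was read from its brightest one. The other 3, Col11a1, Col5a3 and Col7a1, read at most 28.7 on any array and are not compared. Of the 31 genes, 22 were lowest in B6 Western, against 27.5% of all 11715 genes measured, and 21 were highest in B6 chow, against 34.9%. In 16 of the 31 both held, against 11.9% of all genes. The other 9 genes were lowest in Ath29 chow (31.8% of all genes), and 7 were highest in Ath29 Western (21.1% of all genes). No member was lowest in Ath29 Western (18.2% of all genes) or in B6 chow (22.6%), 3 were highest in Ath29 chow (17.6%) and 0 in B6 Western (26.4%). These counts depend on how arrays are scaled. On every array the median level of 12 smooth muscle genes lay between Myocd and Myh11, so it rests on those genes. With that median set equal, 14 of the 31 were lowest in B6 Western. Under each of 3 other marker scalings 21 were. A scaling moves every gene of an array alike, and the shares of all genes under these scalings are not given. The change in count therefore cannot be read as particular to the members.

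**Figure D1:**
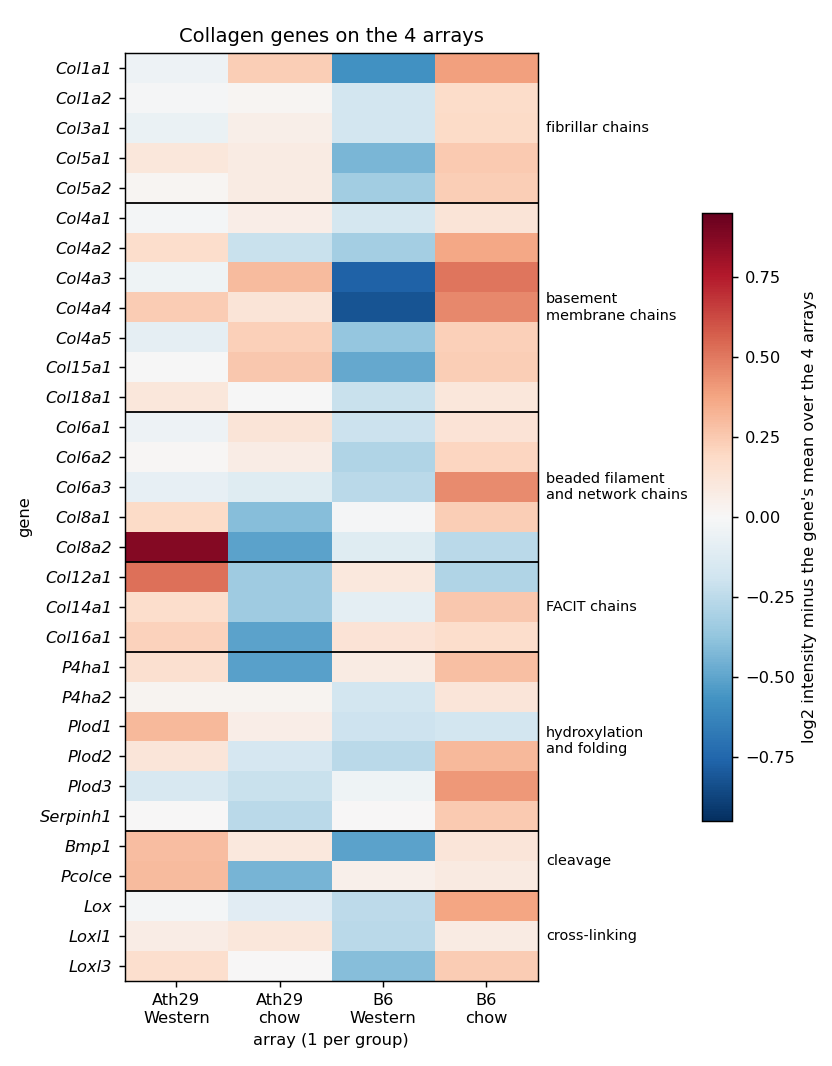
Each row is a gene and each column an array; colour gives the log2 intensity minus the gene's mean over the 4 arrays, and black lines separate roles. The B6 Western column holds the lowest value of 22 of the 31 genes (27.5% of all genes), most of them fibrillar and basement membrane chains. The Ath29 chow column holds the other 9 (31.8% of all genes). With smooth muscle marker levels set equal, 14 are lowest in B6 Western, and the share of all genes for that count is not given.

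The effect of diet was read within each strain. In Ath29 mice the 31 genes had a median Western minus chow difference of 0.090, against 0.04 over all genes, and 19 of 31 lay above 0, against 56.2% of all genes. At least 1.5-fold, 6 members were higher on Western diet (6.03% of all genes) and 0 lower (4.35% of all genes). In B6 mice the median was -0.36, against -0.06 over all genes, and 2 of 31 lay above 0, against 43.4% of all genes. At least 1.5-fold, 0 members were higher (9.95% of all genes) and 11 lower (7.13% of all genes). The 6 genes higher in Ath29 mice were Col8a2, Col12a1, Pcolce, Col16a1, P4ha1 and Col8a1. Past 2-fold, 1 member was higher (1.32% of all genes) and 0 lower (0.854%) in Ath29 mice, and 0 were higher (4.11%) and 2 lower (1.17%) in B6 mice. In both strains alike, 0 members were 1.5-fold higher (0.837% of all genes) and 0 lower (0.367%), while 2 lay above 0 in both (19.3%) and 12 below (19.7%). The direction of both medians depends on the scaling. Setting arrays equal by the centred values of smooth muscle or fibroblast markers gave -0.049 and -0.096 in Ath29 mice and -0.21 and -0.29 in B6 mice. Setting the median levels of the same markers equal, without centring, gave -0.26 and -0.045 in Ath29 mice, and 0.13 and -0.11 in B6 mice, so that the B6 median turned above 0 under the smooth muscle levels. Each marker scaling adds a constant to every gene of an array, so the member median minus the median of all genes stayed at 0.048 in Ath29 mice and -0.30 in B6 mice under all 4.

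**Figure D2:**
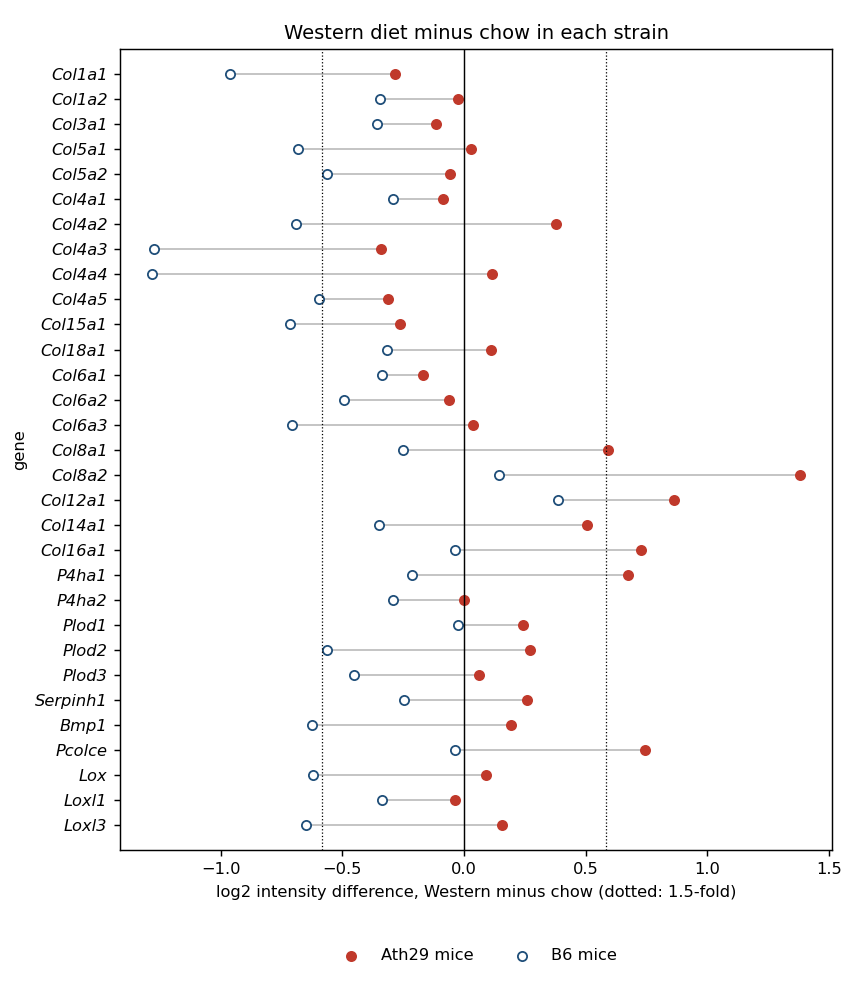
Points give the Western minus chow difference in log2 intensity of each gene, filled for Ath29 mice and open for B6 mice; dotted lines mark 1.5-fold and each point compares 1 array with 1 array. Every filled point lies right of its open partner, from Col6a1 with a gap of 0.17 to Col4a4 with 1.39, under scaling to a common array median. With centred smooth muscle markers set equal, 26 of the 31 gaps kept that direction, against 34.96% of all genes. With their levels set equal 6 did, against 7.91% of all genes.

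The effect of strain was read on each diet. On Western diet the median Ath29 minus B6 difference of the 31 genes was 0.30, against 0.00 over all genes, and 30 of 31 lay above 0, against 50.7% of all genes. At least 1.5-fold, 4 members were higher in Ath29 mice (5.63% of all genes) and 0 lower (7.89% of all genes). On chow the median was -0.17, against -0.08 over all genes, and 4 of 31 lay above 0, against 41.1% of all genes. At least 1.5-fold, 0 members were higher (7.28% of all genes) and 5 lower (9.62% of all genes). Past 2-fold on Western diet, 1 member was higher (0.845% of all genes) and 0 lower (2.03%), and on chow 0 were higher (2.17%) and 0 lower (1.94%). The chow median turned above 0 under all 4 marker scalings, to 0.094 and 0.058 with centred smooth muscle and fibroblast markers and to 0.59 and 0.15 with their levels, and the smooth muscle levels put 16 of 31 members 1.5-fold higher in Ath29 mice on chow, against 61.3% of all genes. The medians of all genes turned too, to 0.19, 0.15, 0.68 and 0.24 in that order, and the members stayed -0.092 from them, as with a common array median. The Western diet median stayed above 0 under the 4, from 0.21 to 0.27, and 0.29 above that of all genes. On both diets alike, 0 members were 1.5-fold higher (0.435% of all genes) and 0 lower (0.828%), while 4 lay above 0 on both (18.5%) and 1, Plod3, below (26.7%). The strain and diet comparisons share arrays: B6 Western is the array set against Ath29 Western here and the array of the B6 diet difference above.

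**Figure D3:**
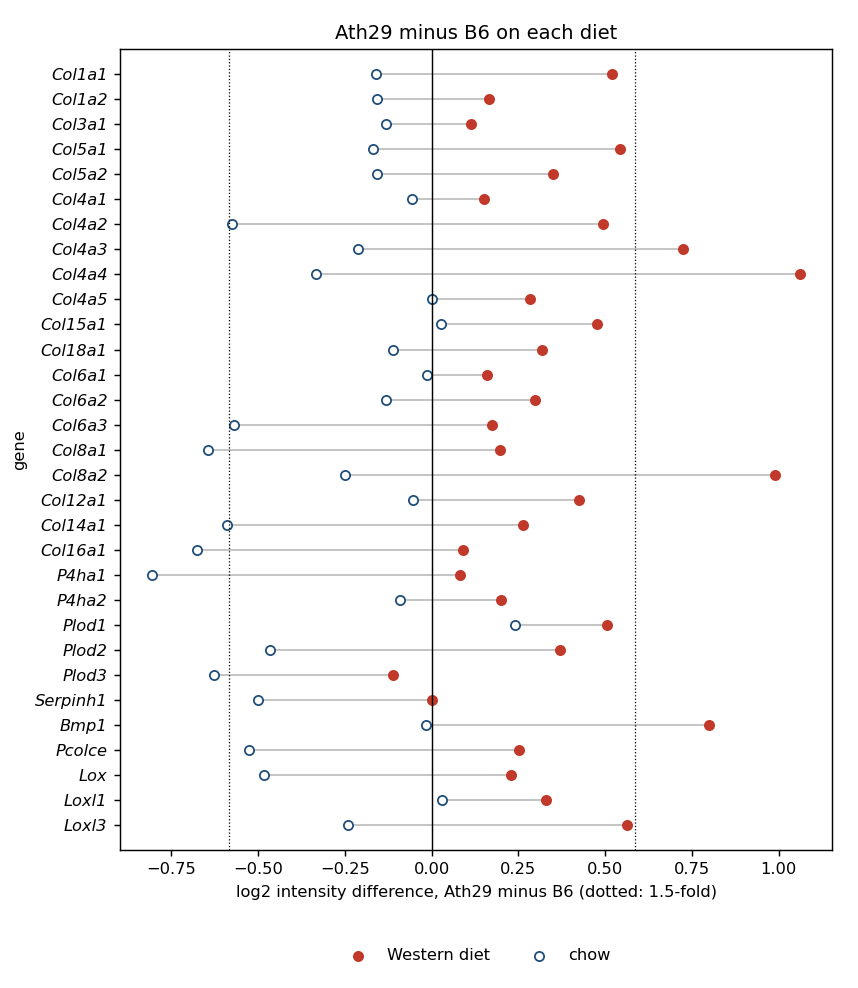
Points give the Ath29 minus B6 difference in log2 intensity of each gene, filled on Western diet and open on chow; dotted lines mark 1.5-fold and each point compares 1 array with 1 array. On Western diet 30 of 31 points lie above 0 (50.7% of all genes) and on chow 4 of 31 (41.1% of all genes). Each of the 4 marker scalings turns the chow median above 0, to between 0.058 and 0.59, and that of all genes too.

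The fibrillar chains had a median diet difference of -0.06 in Ath29 mice and -0.56 in B6 mice over 5 measured genes. Col1a1, the major chain of collagen I, read 3306 in Ath29 Western and 4021 in Ath29 chow, against 2305 in B6 Western and 4493 in B6 chow. It was 1.22-fold lower on Western diet in Ath29 mice and 1.95-fold lower in B6 mice. Col1a2, which supplies the partner chain of collagen I, read 7273 in Ath29 Western, 7400 in Ath29 chow, 6482 in B6 Western and 8248 in B6 chow. The B6 Western array was the low value for both chains, and the other 3 arrays lay closer together for Col1a2 than for Col1a1. Col3a1, the homotrimeric collagen of extensible tissue, read 7807 in Ath29 Western, 8447 in Ath29 chow, 7217 in B6 Western and 9257 in B6 chow. Other probe sets of these genes gave larger B6 diet differences: -0.75 and -0.75 for Col1a2 against -0.35 for the brightest, and -0.77 for Col3a1 against -0.36. One further Col1a2 probe set also gave -0.62 in Ath29 mice, where the brightest gave -0.03. Col5a1, a chain of the collagen V that starts fibrils, read 3436 in Ath29 Western, 3371 in Ath29 chow, 2361 in B6 Western and 3793 in B6 chow. Its diet difference was 0.03 in Ath29 mice and -0.68 in B6 mice, a 1.61-fold lower value. Col5a2, its partner chain, gave -0.06 and -0.56, with a second probe set at -0.19 and -0.89. Col3a1 and Col5a2 are adjacent genes on chromosome 1. In the additive limma fit described below, Col1a1 had the lowest unadjusted diet p of all members.

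The Col1a2 promoter is shown because CCAAT boxes near its start are a classic element of collagen I transcription. The window runs from 250 bases before to 50 bases after the start, at chr6:4505368-4505667 on the plus strand of GRCm38.p6 (RefSeq). Capitals mark CCAAT or its reverse complement ATTGG, and GGGCGG or its reverse complement CCGCCC.
Col1a2: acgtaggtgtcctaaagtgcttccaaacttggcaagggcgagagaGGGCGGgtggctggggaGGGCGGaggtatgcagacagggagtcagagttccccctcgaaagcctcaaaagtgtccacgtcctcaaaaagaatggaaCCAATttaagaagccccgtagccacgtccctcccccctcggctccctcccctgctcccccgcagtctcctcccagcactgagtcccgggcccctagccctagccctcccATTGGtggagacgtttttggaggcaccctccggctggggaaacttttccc
The window holds 2 CCAAT matches and 2 GGGCGG matches and no TATAAA. Promoter windows were given for 24 of the 35 genes, 26 windows in all. Of these 26, 10 held CCAAT on either strand against 37.4% of 32851 mouse windows of the same length, 19 held GGGCGG against 35.7%, and 3 held TATAAA or TTTATA against 13.6%. These matches describe letters and are not shown to be sites.

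Basement membrane chains carried the largest diet difference among the roles in B6 mice, with a median of -0.69 over 7 genes and 5 of 7 at least 1.5-fold lower (7.13% of all genes). In Ath29 mice the median was -0.09, with 0 of 7 lower (4.35% of all genes). Col4a4 read 603.8 in Ath29 Western and 558.5 in Ath29 chow, against 289.5 in B6 Western and 703.3 in B6 chow. It was 2.43-fold lower on Western diet in B6 mice and 2.09-fold higher in Ath29 than in B6 mice on Western diet. Col4a3 read 234.3 in Ath29 Western and 296.8 in Ath29 chow, against 142.0 in B6 Western and 343.5 in B6 chow, 2.42-fold lower on Western diet in B6 mice. The B6 Western value of both genes was the low one, and the other 3 arrays lay within 1.47-fold of each other. Their protein products join Col4a5 in the specialised alpha-3, alpha-4, alpha-5 network of collagen IV, best known from the kidney filter. The other 2 measured Col4a4 probe sets gave B6 diet differences of -1.27 and -0.76, and Ath29 diet differences of -0.16 and -0.25. On chow the strain difference of Col4a4 was -0.33 from the brightest probe set and 0.35 from another. Col4a3 and Col4a4 are adjacent genes on chromosome 1 and differed by nearly the same amount in B6 mice, -1.27 and -1.28. In Ath29 mice they were -0.34 and 0.11. Their starts face each other in a shared promoter region, as background, and the Col4a4 window is printed for that reason, at chr1:82586800-82587099 on the minus strand of GRCm38.p6 (RefSeq). The capitals of the Col1a2 window apply here too, and no match to the 3 motifs was found in this stretch.
Col4a4: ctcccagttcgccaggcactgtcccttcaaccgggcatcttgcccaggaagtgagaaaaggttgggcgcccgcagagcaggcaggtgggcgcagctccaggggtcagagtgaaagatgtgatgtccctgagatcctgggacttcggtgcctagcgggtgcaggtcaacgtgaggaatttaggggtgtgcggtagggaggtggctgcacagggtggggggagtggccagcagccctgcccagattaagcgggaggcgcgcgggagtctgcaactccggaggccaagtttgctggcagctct

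Col4a1 and Col4a2, the ubiquitous collagen IV chains that assemble into a common trimer, are a second head-to-head pair, on chromosome 8. Col4a1 read 4493 in Ath29 Western, 4769 in Ath29 chow, 4050 in B6 Western and 4960 in B6 chow. Col4a2 read 673.3 in Ath29 Western, 518.1 in Ath29 chow, 478.1 in B6 Western and 771.6 in B6 chow. On these probe sets the pair did not differ alike: the diet difference was -0.09 in Ath29 mice and -0.29 in B6 mice for Col4a1, and 0.38 and -0.69 for Col4a2. The second Col4a1 probe set read 270 in Ath29 Western, 170 in Ath29 chow, 187 in B6 Western and 302 in B6 chow. Its diet differences of 0.66 and -0.69 lie close to those of Col4a2, and its strain difference on chow was -0.82 against -0.06 for the brightest. The choice of probe set therefore sets whether the pair is described as moving together. Their promoter windows share 78 bases, and are shown to give that overlap, from chr8:11312777-11313076 on the minus strand for Col4a1 and chr8:11312555-11312854 on the plus strand for Col4a2 (GRCm38.p6, RefSeq).
Col4a1: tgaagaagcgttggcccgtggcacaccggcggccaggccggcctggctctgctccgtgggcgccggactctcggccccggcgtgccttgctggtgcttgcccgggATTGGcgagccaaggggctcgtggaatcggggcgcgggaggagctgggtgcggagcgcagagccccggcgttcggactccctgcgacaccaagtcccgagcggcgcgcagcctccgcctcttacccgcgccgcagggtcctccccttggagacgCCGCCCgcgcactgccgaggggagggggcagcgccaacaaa
Col4a2: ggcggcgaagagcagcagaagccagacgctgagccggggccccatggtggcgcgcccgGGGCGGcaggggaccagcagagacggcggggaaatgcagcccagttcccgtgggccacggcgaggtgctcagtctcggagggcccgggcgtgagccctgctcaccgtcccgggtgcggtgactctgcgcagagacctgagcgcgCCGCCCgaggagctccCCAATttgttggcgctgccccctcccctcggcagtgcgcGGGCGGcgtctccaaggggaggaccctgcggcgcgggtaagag
Capitals mark the same motifs: 1 CCAAT match (as ATTGG) and 1 GGGCGG match in the Col4a1 window, and 1 and 3 in the Col4a2 window.

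Col4a5, the X-linked collagen IV chain, read 4330 in Ath29 Western, 5377 in Ath29 chow, 3556 in B6 Western and 5371 in B6 chow. Its chow values were nearly equal in the strains, and the Western diet value was lower in each, 1.24-fold in Ath29 mice and 1.51-fold in B6 mice. Its neighbour Col4a6, no member of the set, gave diet differences of -0.06 and -0.56. Col15a1, a multiplexin that bridges basement membrane and stroma, read 413.2 in Ath29 Western and 496.1 in Ath29 chow, against 296.7 in B6 Western and 486.9 in B6 chow. It was lower on Western diet by 1.20-fold in Ath29 mice and 1.64-fold in B6 mice. Col18a1, the precursor of endostatin, gave diet differences of 0.11 and -0.32. Of the 7 basement membrane genes, all 7 were higher in Ath29 than in B6 mice on Western diet, by 0.15 to 1.06. So were 30 of all 31 members, against 50.7% of all genes. By at least 1.5-fold 2 of the 7 were higher, Col4a3 and Col4a4 (5.63% of all genes).

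Collagen VI forms beaded microfilaments around cells. Its chains Col6a1 and Col6a2, adjacent on chromosome 10, gave diet differences of -0.17 and -0.06 in Ath29 mice and -0.34 and -0.49 in B6 mice. Col6a3, the largest chain, read 1193 in Ath29 Western and 1162 in Ath29 chow, against 1058 in B6 Western and 1726 in B6 chow. For this chain it is B6 chow that stands apart, 1.63-fold above B6 Western and 1.49-fold above Ath29 chow.

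Collagen VIII and the FACIT chains, which decorate fibrils, showed another order of arrays. Col8a2 read 131.9 in Ath29 Western and 50.7 in Ath29 chow, against 66.5 in B6 Western and 60.2 in B6 chow. The Ath29 Western array was the high one, 2.60-fold above Ath29 chow and 1.98-fold above B6 Western, and the other 3 arrays lay within 1.31-fold of each other. Col8a1, which encodes the partner chain, read 390.0 in Ath29 Western, 259.0 in Ath29 chow, 340.2 in B6 Western and 404.8 in B6 chow. Here Ath29 chow was the low array. A second Col8a1 probe set read 123.0 in Ath29 Western, 71.7 in Ath29 chow, 70.0 in B6 Western and 58.2 in B6 chow, so it resembles Col8a2 in having Ath29 Western alone as its high array. On chow it gave a strain difference of 0.30 where the brightest gave -0.64, and the difference on that diet is unsettled for this gene. The Col8a2 promoter, shown as that of the member with the largest diet difference in Ath29 mice, lies at chr4:126286544-126286843 on the plus strand (GRCm38.p6, RefSeq).
Col8a2: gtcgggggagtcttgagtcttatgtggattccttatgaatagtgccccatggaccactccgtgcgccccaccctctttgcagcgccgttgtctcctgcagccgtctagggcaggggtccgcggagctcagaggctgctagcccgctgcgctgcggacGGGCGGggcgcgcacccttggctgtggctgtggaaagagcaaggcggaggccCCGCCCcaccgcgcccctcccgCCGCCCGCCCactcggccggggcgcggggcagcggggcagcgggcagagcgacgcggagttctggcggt
It holds 4 GGGCGG matches on either strand, of which a pair overlaps, and no CCAAT or TATAAA.

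Col12a1, a FACIT collagen of tendon and stretched tissue, read 97.3 in Ath29 Western and 53.5 in Ath29 chow, against 72.4 in B6 Western and 55.4 in B6 chow. It is a member with a higher value on Western diet in both strains, 1.82-fold in Ath29 mice and 1.31-fold in B6 mice. Among the brightest probe sets the only other such member is Col8a2. The second Col8a1 probe set was also higher in both, by 0.78 in Ath29 mice and 0.27 in B6 mice. That of Pcolce gave 0.86 and 0.01. Col14a1, known as undulin, read 2123 in Ath29 Western, 1496 in Ath29 chow, 1770 in B6 Western and 2254 in B6 chow. It was 1.42-fold higher on Western diet in Ath29 mice and 1.27-fold lower in B6 mice, and a second probe set gave 0.25 and -0.40. Col16a1 read 40.9 in Ath29 Western and 24.7 in Ath29 chow, against 38.5 in B6 Western and 39.5 in B6 chow. Its Ath29 chow value lies below the filter of 27.5, so the 1.66-fold diet difference in Ath29 mice is not exact. The 3 FACIT genes had a median diet difference of 0.73 in Ath29 mice and -0.04 in B6 mice, and on chow Col14a1 and Col16a1 were at least 1.5-fold lower in Ath29 than in B6 mice.

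Among the hydroxylation and folding genes, 1 of 6 was at least 1.5-fold higher on Western diet in Ath29 mice (6.03% of all genes) and 0 of 6 lower in B6 mice (7.13% of all genes). P4ha1, the catalytic subunit of prolyl 4-hydroxylase, read 84.7 in Ath29 Western and 53.1 in Ath29 chow, against 80.1 in B6 Western and 92.8 in B6 chow. Ath29 chow was the low array, 1.75-fold below B6 chow, the largest strain difference on chow among the brightest probe sets. P4ha2, an alternative catalytic subunit, differed little: 1468 in Ath29 Western, 1469 in Ath29 chow, 1277 in B6 Western and 1564 in B6 chow. Plod2, the lysyl hydroxylase of the telopeptides, read 558.0 in Ath29 Western, 462.6 in Ath29 chow, 431.6 in B6 Western and 638.6 in B6 chow. Plod3, which also glycosylates hydroxylysine, read 84.2 in Ath29 Western and 80.7 in Ath29 chow, against 90.9 in B6 Western and 124.5 in B6 chow. It was the single member lower in Ath29 than in B6 mice on Western diet, by -0.11. Plod1, the lysyl hydroxylase of the helical domain, was higher in Ath29 mice on both diets, by 0.51 on Western diet and 0.24 on chow. Serpinh1 read 1523 in Ath29 Western, 1274 in Ath29 chow, 1521 in B6 Western and 1803 in B6 chow, and its second probe set placed Ath29 chow 2.13-fold below B6 chow.

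Bmp1, the proteinase that removes the C-terminal propeptide and also activates lysyl oxidase, read 202.0 in Ath29 Western and 176.8 in Ath29 chow, against 116.0 in B6 Western and 178.8 in B6 chow. B6 Western was the low array, 1.54-fold below B6 chow and 1.74-fold below Ath29 Western. Pcolce, which enhances that cleavage, read 2735 in Ath29 Western and 1634 in Ath29 chow, against 2296 in B6 Western and 2355 in B6 chow. It was 1.67-fold higher on Western diet in Ath29 mice and 1.03-fold lower in B6 mice, and its second probe set gave 0.86 and 0.01. The array that stood apart was B6 Western for Bmp1 and Ath29 chow for Pcolce.

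Lox, the lysyl oxidase of the artery wall, read 1288 in Ath29 Western, 1210 in Ath29 chow, 1101 in B6 Western and 1693 in B6 chow. B6 chow was its high array, 1.54-fold above B6 Western. A second Lox probe set read 205.7 in Ath29 Western, 243.8 in Ath29 chow, 252.9 in B6 Western and 219.2 in B6 chow, and gave a B6 diet difference of 0.21 against -0.62. The direction for Lox thus rests on the probe set. Loxl3 read 789.6 in Ath29 Western and 708.4 in Ath29 chow, against 534.4 in B6 Western and 837.7 in B6 chow, 1.57-fold lower on Western diet in B6 mice. Loxl1, an oxidase needed for elastic fibre upkeep, read 4927 in Ath29 Western, 5059 in Ath29 chow, 3921 in B6 Western and 4951 in B6 chow, with the B6 Western array alone set apart.

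The strain by diet difference, the diet difference in Ath29 mice minus that in B6 mice, was above 0 in all 31 members, against 58.8% of all genes. Its median was 0.68 against 0.11 over all genes, with a range from 0.17 for Col6a1 to 1.39 for Col4a4. Past 2-fold, 3 members were above (4.95% of all genes), Col4a4, Col8a2 (1.24) and Col4a2 (1.07), and 0 below (6.77% of all genes). Over the 49 measured probe sets, 48 lay above 0, and the exception was the second Lox probe set. This pattern depends on the scaling. With centred smooth muscle or fibroblast markers set equal, 26 and 28 of 31 lay above 0, with medians of 0.39 and 0.43. With the median levels of those markers set equal, 6 and 23 lay above 0, with medians of -0.17 and 0.29. The sign thus turned under the smooth muscle levels, which rest on Myocd and Myh11, the middle-ranked genes on every array. The medians of all genes were then -0.18 and -0.14 with the centred markers and -0.74 and -0.28 with the levels, and 34.96%, 38.2%, 7.91% and 28.5% of all genes lay above 0. Since a constant was added to every gene, the member median stayed 0.57 above that of all genes under each. The marker scalings were added after the data were seen, and the centred form was chosen after the values of the level form had been seen.

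**Figure D4:**
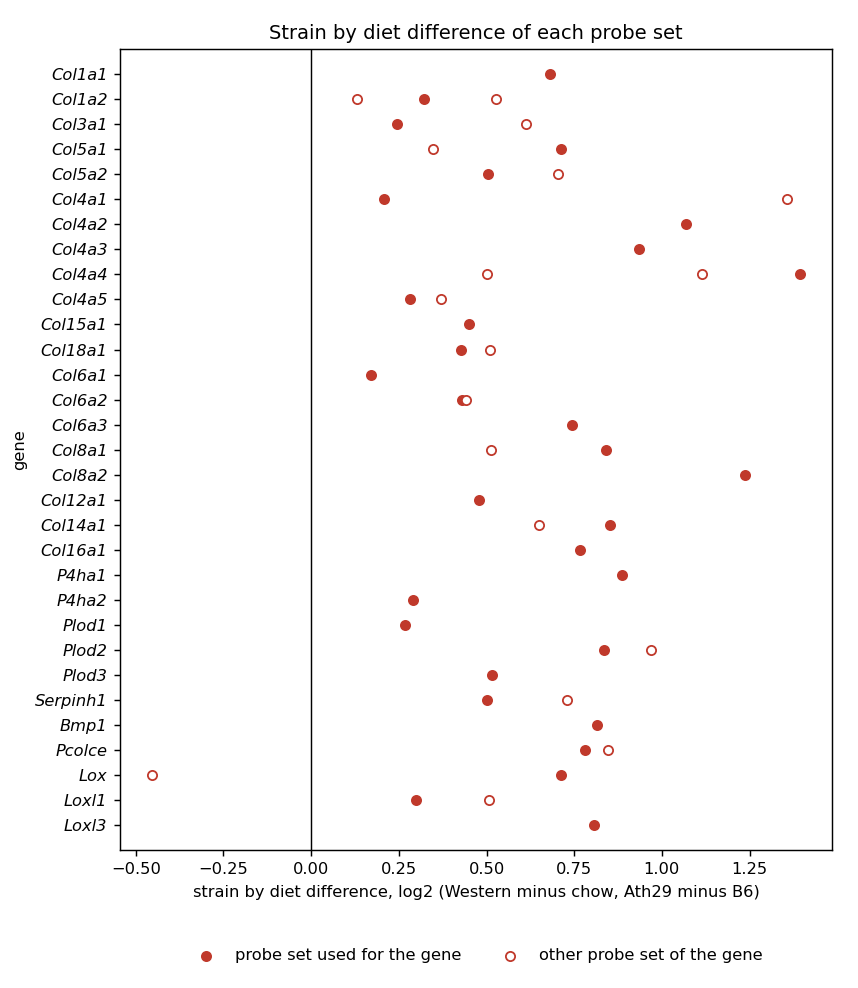
Each point is a probe set, filled where it was used for its gene; the horizontal axis gives the strain by diet difference in log2. Of 49 probe sets 48 lie above 0, under scaling to a common array median, and the second Lox probe set, at -0.45, lies below. With smooth muscle marker levels set equal, 6 of 31 genes lie above 0, against 7.91% of all genes.

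An additive limma fit of strain and diet over all 11715 genes, whose error is the strain by diet difference, with 1 residual degree of freedom, called 0 members for strain (0.0341% of all genes) and 0 for diet (0% of all genes) at a Benjamini-Hochberg adjusted p under 0.05. At an unadjusted p under 0.05 it held 0 members for strain (2.31% of all genes) and 3 for diet (2.19% of all genes). The 3 were Col1a1, with a diet effect of -0.62 ± 0.20, Col4a3, with -0.81 ± 0.30, and Col4a5, with -0.45 ± 0.15 (SE). The lowest limma adjusted p of any member was 1 for each term, and 0.924 for strain without the filter on low values. The strain by diet error of each gene was moderated towards a trend over all genes, with 7.57 prior degrees of freedom. The SEs and p-values therefore draw largely on the other genes. They measure the spread between these 4 arrays only.

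Probe sets of 1 gene gave a measure of the spread within a gene. For the 16 members with several measured probe sets, each log2 difference was taken around the mean of its gene's probe sets. The pooled SD was 0.21 and 0.30 for strain on Western diet and chow, and 0.23 and 0.25 for diet in Ath29 and B6 mice. All probe sets of a gene had the same sign in 14, 11, 11 and 13 of the 16 genes in that order. This spread holds no variation between mice or arrays.

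Ath29 lies on chromosome 9, as do 5 members, of which Col12a1, Plod2 and Loxl1 were measured and Col5a3 and Col7a1 were not. From their brightest probe sets, the 3 measured genes had strain differences of 0.33 to 0.42 on Western diet and -0.47 to 0.03 on chow. Of these, 0 were past 1.5-fold (5.63% of all genes higher and 7.89% lower on Western diet, 7.28% and 9.62% on chow). The second probe set of Plod2 gave 0.15 on Western diet and -0.82 on chow, which is 1.76-fold lower. That of Loxl1 gave 0.55 and 0.04. The median on Western diet was 0.37 against 0.27 for the 28 members on other chromosomes, and on chow -0.05 against -0.19. Of these 3, Loxl1 had the same direction on both diets, with 0.33 on Western diet and 0.03 on chow.

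Of the other genes of the pathway, B6 Western was the lowest array for 8 of 17 biosynthesis genes, 8 of 22 matrix genes, 4 of 8 receptor genes and 3 of 12 genes of TGF-beta signalling, against 27.5% of all genes. Of 17 measured genes of collagen biosynthesis outside the set, among 24 listed, 16 were higher in Ath29 than in B6 mice on Western diet (50.7% of all genes) and 5 on chow (41.1%). On Western diet 13 were higher in Ath29 mice (56.2% of all genes) and 0 in B6 mice (43.4%). At least 1.5-fold lower on Western diet in B6 mice were 3 of the 17 (7.13% of all genes). P3h1, a prolyl 3-hydroxylase, read 95.4 in Ath29 Western and 93.9 in Ath29 chow, against 58.0 in B6 Western and 90.7 in B6 chow. P4hb, the disulfide isomerase subunit of prolyl 4-hydroxylase, read 2547 in Ath29 Western, 2431 in Ath29 chow, 2826 in B6 Western and 3620 in B6 chow. Of 8 measured collagen receptor and uptake genes, 8 were higher in Ath29 mice on Western diet (50.7% of all genes) and 0 on chow (41.1%), led by Lair1, an inhibitory collagen receptor of leukocytes, with 0.88 on Western diet and -0.09 on chow. Of 22 measured collagen-binding matrix genes, 3 were at least 1.5-fold higher in Ath29 mice on Western diet (5.63% of all genes) and 3 lower on chow (9.62%). Fmod, the fibril-binding fibromodulin, read 2448 in Ath29 Western and 1202 in Ath29 chow, against 1140 in B6 Western and 1591 in B6 chow. Lum, or lumican, was lower in Ath29 mice on both diets, by -0.38 and -0.96. Of 12 measured genes of TGF-beta signalling and other collagen-inducing factors, 0 were at least 1.5-fold higher in Ath29 mice on Western diet (5.63% of all genes) and 1, Pdgfb, was lower, by -0.60 (7.89%). On chow 2 were lower (9.62% of all genes), Tgfb3 by -0.91 and Tgfb1 by -0.61. The 8 measured collagen chains outside the set had smaller medians, 0.04 for strain on Western diet and -0.27 for diet in B6 mice. Col13a1, a membrane collagen, was higher on Western diet in both strains, by 0.82 and 0.94. Its chow values, 21.6 in Ath29 mice and 26.7 in B6 mice, lie below the filter of 27.5, so these differences are not exact.

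Markers of collagen-making cells were set beside these values. In B6 mice the median diet difference was -0.07 over 12 fibroblast genes without collagen and -0.19 over 12 smooth muscle genes, against -0.36 over the 31 collagen genes. In Ath29 mice the same medians were 0.17, 0.095 and 0.090. Of the 12 smooth muscle genes, 2 lay above 0 in B6 mice (43.4% of all genes), Des at 0.03 and Casq2 at 2.39. Casq2 read 239 in B6 Western, against 43.2 in Ath29 Western, 41.4 in Ath29 chow and 45.5 in B6 chow. Its weight in the smooth muscle scalings was not tested. B6 Western was also the high array of the summed heart muscle genes. They read 15152 there, against 514 in Ath29 Western, 753 in Ath29 chow and 925 in B6 chow. Whether heart tissue has a part in the Casq2 value was not tested. On Western diet the strain medians were 0.03 for fibroblast genes and 0.03 for smooth muscle genes, against 0.30 for collagen genes, and on chow -0.26, -0.23 and -0.17. Brown fat genes ran in the other direction, with diet medians of -0.55 in Ath29 mice and 1.53 in B6 mice, and white fat genes gave -0.29 and 0.77. Heart muscle genes had diet medians of -0.19 and 4.04, and 3 measured skeletal muscle genes 0.077 and 1.04. Macrophage genes were higher on Western diet in both strains, with medians of 0.71 and 0.87, while 8 endothelial genes gave 0.060 and 0.018 and 4 Schwann cell genes -0.044 and 0.29. Their part in the collagen values was not tested. Cartilage and bone genes, of which 5 were measured, gave 0.52 in Ath29 mice and -0.62 in B6 mice, with Col2a1 below the filter.

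**Figure D5:**
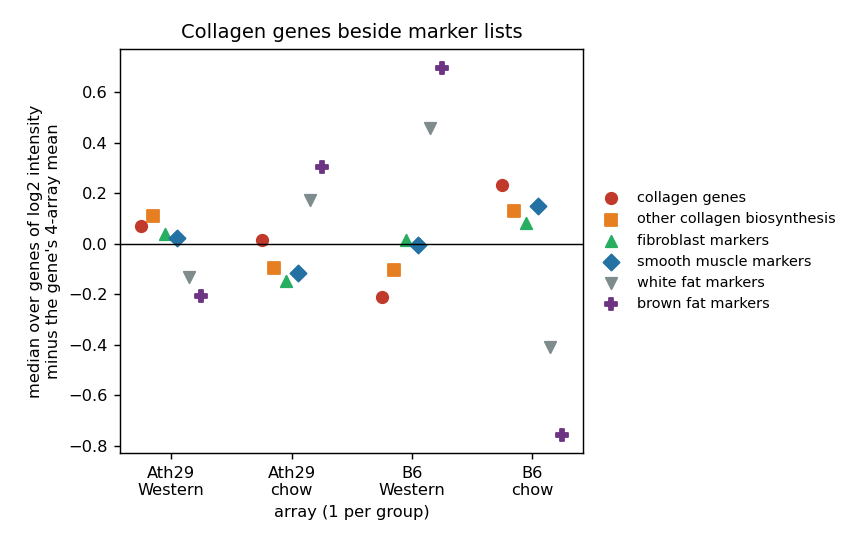
Each point is the median, over the genes of a list, of the log2 intensity minus the gene's own 4-array mean, on each array. Collagen genes lie at -0.21 in B6 Western, where fibroblast markers lie at 0.014, smooth muscle markers at -0.0038 and brown fat markers at 0.70.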

How the data were processed

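RNA labelled as aortic was hybridised to 4 Affymetrix arrays, 1 per group, per the labels. The deposited table holds an intensity per probe set, linear, from 0.57 to 13421. Which software, background correction and scaling made it is not given in the sources used here. The number of arrays limits the precision. The platform annotation, updated to GRCm38.p6 names, gave 1 gene to 34945 of 45101 probe sets (34741 matched the reference table), several to 932 and none to 9160, and 64 were controls. Intensities were taken to log2 and shifted to a common median, values under 9.60 (25th percentile) were raised to it, and probe sets with a mean above 27.5 (median of all) were kept. The brightest represented its gene, leaving 11715 genes. With 1 array per group single differences have no test. The additive fit used limma 3.58.1 (R 4.3.3) with a trend, tested on simulated data. Members and lists were chosen with earlier results of these data known. All members are described by role. From other lists the 3 highest and 3 lowest by mean strain or diet difference could be named, and other probe sets were given where they differed by over 1.5-fold. The strain by diet counts, the lowest-array counts, the promoters and motifs shown, and the naming of Acta2, Tgfb1, Pdgfb and of some other probe sets, were chosen after values were seen. Promoters come from RefSeq. Alternatives were other scalings, filters, floors, probe set choices and a 2-fold threshold, and, added after seeing the data, 4 marker scalings: median levels of smooth muscle or fibroblast genes were run first, and their gene-centred forms were chosen after those values were seen, because a median of levels ranks different probe sets against each other.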

Additional observations from a re-analysis of the deposited data

Results flagged for a closer look

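Several results ran in opposite directions in the groups compared. With 1 array per group these differences between groups were not tested. The member median of the Ath29 minus B6 difference was 0.30 on Western diet and -0.17 on chow, and that of the Western minus chow difference was 0.090 in Ath29 mice and -0.36 in B6 mice. The signs of -0.17 and 0.090 turned under all 4 marker scalings, as did those of the medians of all genes, and the distance between member and all-gene medians stayed at -0.092 and 0.048. Among single members past 2-fold in the strain by diet difference, Col4a2 gave strain differences of 0.49 on Western diet and -0.57 on chow, and diet differences of 0.38 in Ath29 and -0.69 in B6 mice. Col4a4 gave strain differences of 1.06 on Western diet and -0.33 on chow, and diet differences of 0.11 in Ath29 and -1.28 in B6 mice. Col8a2 gave strain differences of 0.99 on Western diet and -0.25 on chow, while its diet difference was above 0 in both strains.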

How the results depend on the processing

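No paired analysis was possible because each group has 1 array. The median strain difference on Western diet stayed above 0 under every setting run, from 0.21 to 0.41, the highest with quantile normalization. Members 1.5-fold higher there numbered 4 (5.63% of all genes), but 7 with quantile normalization (5.89%) and 1 at 2-fold (0.845%). With every probe set on its own they were 8 of 49. For this and other settings without a share below, the share of all genes is not given. Members lower on chow numbered 5 (9.62% of all genes), but 2 with quantile normalization (7.45%), a common 75th percentile (7.47%) or a filter at the 75th percentile. They numbered 3 without a shift (8.01%) or with probe sets of several transcripts left out, 8 with every probe set, and 0 at 2-fold (1.94%). Members higher on Western diet in Ath29 mice numbered 6 (6.03% of all genes), but 2 with the stricter filter, 11 with every probe set and 1 at 2-fold (1.32%). Without a filter or with every probe set 1 was lower there, and 1 was lower in both strains. Members lower in B6 mice numbered 11 (7.13% of all genes), but 8 without a shift (5.93%), 12 with quantile normalization (6.93%) and 2 at 2-fold (1.17%). With every probe set they numbered 18. The B6 median of -0.36 became -0.56 with the stricter filter and -0.57 with probe sets of several transcripts left out. The median strain by diet difference of 0.68 became 0.51 without a filter and 0.53 with every probe set (48 of 49 above 0).

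The marker scalings moved the values more, though not the distance of the member medians from those of all genes, which a constant per array cannot change, and all 4 were added after seeing the data. The first form, which sets the median level of the marker genes equal, was run before the gene-centred form, and the centred form was chosen with its values in view; the level form reversed more. The smooth muscle level lay between Myocd and Myh11 on every array. For strain on chow, Myh11 differed by -1.30 and Myocd by -0.21, against a median of -0.23 over the smooth muscle list. With smooth muscle levels, the member medians were 0.59 for strain on chow and -0.17 for strain by diet. For diet they were -0.26 in Ath29 mice and 0.13 in B6 mice. All were reversed. Strain on chow then had 16 members higher (61.3% of all genes) and 0 lower (0.538%). Diet in Ath29 mice had 1 higher (1.68%) and 4 lower (18.3%), and diet in B6 mice 2 higher (34.7%) and 2 lower (0.802%). For strain by diet 6 lay above 0 (7.91%). In both strains 1 was higher and 1 lower, on both diets 1 was higher, and 14 were lowest in B6 Western. For these last counts the shares of all genes are not given, so they cannot be read as particular to the members. On chow the strain differences of Col14a1 (0.17), Col16a1 (0.081), Col8a1 (0.11) and Plod3 (0.13) were reversed. With fibroblast levels, the medians were 0.15 for strain on chow and -0.045 for diet in Ath29 mice, both reversed, -0.11 for diet in B6 mice and 0.29 for strain by diet. On chow 0 were lower (2.82% of all genes), in B6 mice 1 was higher (18.4%) and 3 lower (2.20%), and 1 was higher in both strains. With centred smooth muscle genes, the chow strain median was 0.094 and the Ath29 diet median -0.049, both reversed. The B6 diet median was -0.21 with 3 lower (3.53% of all genes), and strain by diet 0.39. With centred fibroblast genes the same reversed medians were 0.058 and -0.096, and strain by diet was 0.43. There 2 were higher in Ath29 mice (3.00% of all genes) and 7 lower in B6 mice (5.25%). Both centred forms left 0 lower on chow (3.48% and 3.93% of all genes). All genes moved alike, by 0.26 (strain on chow), -0.14 and 0.15 (diet in Ath29 and B6 mice) for centred smooth muscle, 0.23, -0.19 and 0.066 for centred fibroblast, 0.76, -0.35 and 0.49 for smooth muscle levels and 0.32, -0.14 and 0.25 for fibroblast levels. The cause was not tested. The additive limma fit called 0 members under the 3 alternatives run for it, without a trend, without a filter and with quantile normalization. Signals near background limit Col16a1, the 3 unmeasured genes and, outside the set, Col13a1.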

Other observations

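The pair of Loxl2 probe sets, left out above because the annotation also assigns them to Gm21451, read 604.0 and 86.7 in Ath29 Western, 646.8 and 56.1 in Ath29 chow, 424.0 and 51.5 in B6 Western and 668.8 and 54.2 in B6 chow. The brighter gave diet differences of -0.10 in Ath29 mice and -0.66 in B6 mice, the dimmer 0.63 and -0.07. Among the 18 measured probe sets that were not the brightest of their gene, the diet difference was larger in size than that of the brightest in 15 in Ath29 mice and in 10 in B6 mice, with B6 medians of -0.50 for the dimmer and -0.35 for the brightest ones.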
